A study of Mus musculus with 6 samples.

Results

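Matrix metalloproteinases are zinc-dependent enzymes that cut the proteins of the extracellular matrix, and the tissue inhibitors of metalloproteinases (TIMPs) bind and block them. Transcripts of 6 metalloproteinases (Mmp2, Mmp3, Mmp9, Mmp10, Mmp13 and Mmp14) and 3 inhibitors (Timp1, Timp2 and Timp3) were followed in C2C12 cells, mouse myoblasts of an established line whose cells fuse to myotubes after serum is withdrawn. These 9 genes were taken by symbol from a table of 20950 entries, and each was found once. Growing cells were kept in DMEM with 10% FBS (fetal bovine serum). Differentiating cells were switched before confluence to DMEM with 2% HS (horse serum) or 0.2% FBS, each with or without added exosomes, which are small membrane vesicles, isolated here from FBS with commercial kits and given in the amount that 10% FBS contains. There were 6 libraries. Only 0.2% FBS + exosome had more than 1 (replicates 1 and 2), so that every control is a single library. All cells are of the 1 line, and nothing in the sources used here states that replicates 1 and 2 came from separate cultures, so their spread may be technical and p-values measure only that spread. The study reports exosomes from different batch preparations, and the labels do not say which preparation each library received.

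Most metalloproteinases are secreted as inactive proenzymes whose prodomain must be cut away. Mmp14 is anchored in the cell membrane and activates proMMP2 at the cell surface, in a complex in which Timp2 serves as the bridge, whereas an excess of Timp2 blocks Mmp14. Timp3 is held in the matrix and also inhibits several ADAM proteases, and Timp1 is a weak inhibitor of Mmp14. In muscle, these enzymes take part in myoblast migration, fusion and the remodelling of the basal lamina during repair. RNA levels, which are measured here, do not give the amount of active enzyme.

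The values are FPKM, reads scaled to gene length and to library depth, so levels of different genes can be set side by side. The table holds no counts. The depth estimated from the spacing of low values was between 33700000 and 39500000 reads per library. Differences are given on the scale of log2(FPKM + 1), which understates changes of genes with low values, and a gene is called where the difference passes 1 in either direction, in each of replicates 1 and 2 where both exist. With exosomes in 0.2% FBS the median of 10731 genes averaging 1 FPKM or more shifted by 0.14, and bringing all libraries to 1 common 75th percentile left a shift of 0.042. The 8 skeletal muscle markers were detected in all libraries, with Myf5 the lowest at 4.22 to 12.9 FPKM. Their sum was 5032 FPKM in 10% FBS, between 9515 and 11109 FPKM in 2% HS, 2% HS + exosome and 0.2% FBS, and for 0.2% FBS + exosome 5004 and 3746 FPKM. The 8 leukocyte markers summed to between 1.45 and 2.29 FPKM, with Adgre1 (listed as Emr1) and S100a9 at 0 in every library, and the 4 endothelial markers to between 0.110 and 0.284 FPKM. Of 6 fibroblast markers, Thy1 was listed at 0 in every library and only Pdgfra and Twist2 reached a mean of 1 FPKM.

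Mmp13, Mmp3 and Mmp10 lie in the same orientation on the plus strand of chromosome 9 within 238 kb (mm10, GENCODE vM21). Mmp13 spans 7272514 to 7283331, Mmp3 7445822 to 7455975 and Mmp10 7502352 to 7510240, each with 1 annotated transcript of 10 exons. The other members lie on other chromosomes. Mmp2 lies on chromosome 8 from 92827291 to 92853420, Mmp9 on chromosome 2 from 164940780 to 164955850 and Mmp14 on chromosome 14 from 54431612 to 54445364, all on the plus strand. Timp2 lies on the minus strand of chromosome 11 from 118301069 to 118355740 and overlaps Cep295nl on the same strand, with no exon in common. Timp1, on chromosome X from 20870166 to 20874735, and Timp3, on chromosome 10 from 86300372 to 86349506, each lie inside a synapsin gene on the opposite strand (Syn1 and Syn3). The strand setting of the FPKM calculation is not given in the sources used here, so reads where Timp3 and Syn3 exons overlap could be counted for either gene. Syn3 was at no more than 0.101 FPKM in any library, and Syn1, whose exons do not overlap those of Timp1, at no more than 3.83 FPKM.

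The promoters of the 3 neighbours on chromosome 9 are shown because Mmp13 and Mmp3 passed the threshold in 2% HS and Mmp10, which lies beside them, was nearly absent, and those of Mmp14 and Timp3 because these 2 genes passed the threshold with exosomes. Each run holds 250 bases before the RefSeq start and 50 after it (GRCm38.p6, the build of mm10), written 5′ to 3′ on the strand of the gene. Capitals mark TGAGTCA or its reverse complement TGACTCA (the AP-1 motif), TATAAA (the TATA box) and GGGCGG or its reverse complement CCGCCC (the GC box).
Mmp13, chr9:7272264-7272563, plus strand: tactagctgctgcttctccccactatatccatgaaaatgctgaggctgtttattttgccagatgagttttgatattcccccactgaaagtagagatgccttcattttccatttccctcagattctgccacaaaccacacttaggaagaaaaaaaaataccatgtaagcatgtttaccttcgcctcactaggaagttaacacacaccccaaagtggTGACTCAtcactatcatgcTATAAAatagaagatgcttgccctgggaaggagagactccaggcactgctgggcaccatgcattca
Mmp3, chr9:7445572-7445871, plus strand: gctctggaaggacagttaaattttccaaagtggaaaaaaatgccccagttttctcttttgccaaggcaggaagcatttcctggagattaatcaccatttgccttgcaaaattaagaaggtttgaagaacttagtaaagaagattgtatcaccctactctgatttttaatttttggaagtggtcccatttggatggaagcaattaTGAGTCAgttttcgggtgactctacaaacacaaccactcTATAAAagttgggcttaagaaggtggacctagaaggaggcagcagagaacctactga
Mmp10, chr9:7502092-7502391, plus strand: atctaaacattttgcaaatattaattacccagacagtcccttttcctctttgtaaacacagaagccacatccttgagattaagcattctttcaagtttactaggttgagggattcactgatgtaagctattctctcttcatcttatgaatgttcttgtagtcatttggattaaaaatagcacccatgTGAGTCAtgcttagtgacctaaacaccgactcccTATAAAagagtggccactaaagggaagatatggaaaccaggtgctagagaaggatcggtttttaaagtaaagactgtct
Mmp14, chr14:54431348-54431647, plus strand: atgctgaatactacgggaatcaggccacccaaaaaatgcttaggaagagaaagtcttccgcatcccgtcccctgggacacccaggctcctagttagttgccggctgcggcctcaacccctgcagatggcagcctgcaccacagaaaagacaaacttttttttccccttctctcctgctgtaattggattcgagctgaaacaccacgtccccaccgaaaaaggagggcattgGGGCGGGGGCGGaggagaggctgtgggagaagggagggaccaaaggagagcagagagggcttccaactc
Timp3, chr10:86300162-86300461, plus strand: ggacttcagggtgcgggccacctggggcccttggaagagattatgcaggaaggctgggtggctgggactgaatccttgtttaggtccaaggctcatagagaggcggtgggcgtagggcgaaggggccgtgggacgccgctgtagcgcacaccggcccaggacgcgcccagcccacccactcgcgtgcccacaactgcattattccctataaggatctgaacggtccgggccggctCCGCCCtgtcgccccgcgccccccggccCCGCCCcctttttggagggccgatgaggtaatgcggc

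Mmp13, Mmp3 and Mmp10 each had 1 AP-1 motif, beginning 35, 46 and 63 bases before the start, and 1 TATA box closer to it, and none had a GC box. Across 32851 promoters of the same length, 5.20% held the AP-1 motif and 13.6% TATAAA or its reverse complement. Mmp14 had 2 adjoining GC boxes, beginning 19 and 13 bases before the start, and Timp3 had 2, on the opposite strand, of which 1 begins after the start. At least 1 GC box was present in 35.7% of the promoters. The Timp3 window is rich in CG pairs, with 24, and Mmp14 has 10, against 1 or 2 in the windows of the chromosome 9 genes and a median of 7 over all promoters. Timp2 and Timp1, which were not called with exosomes, had 25 and 8. Of the 9 members, 7 had a promoter in the table, and those of Timp1 and Timp2 held 1 GC box each and no AP-1 or TATA motif. These matches describe letters in a window and do not show that a factor binds there.

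Levels of the members covered a wide range. Timp2 was the most abundant, with a mean of 471 FPKM over the 6 libraries and rank 157 of the 10731 genes, and its lowest library (340 FPKM) was above the highest library of any other member. Mmp14 and Mmp2 followed with means of 187 and 152 FPKM, and their ranges overlapped. Timp1 averaged 105 FPKM and overlapped Mmp2 at its upper end (79.2 to 122 FPKM against 112 to 200 FPKM). Timp3 averaged 36.7 FPKM and did not overlap with its neighbours in the order. Mmp13 was low, at a mean of 3.21 FPKM, and its range overlapped that of Mmp3, which averaged 0.474 FPKM. Mmp9 averaged 0.189 FPKM and was present in every library, and Mmp10, at 0.0116 FPKM, was listed at 0 in 4 of the 6. Therefore 6 of the 9 members reached a mean of 1 FPKM, and Mmp3, Mmp9 and Mmp10 entered the limma models only where no filter was applied, and none of them passed there.

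**Figure D1:**
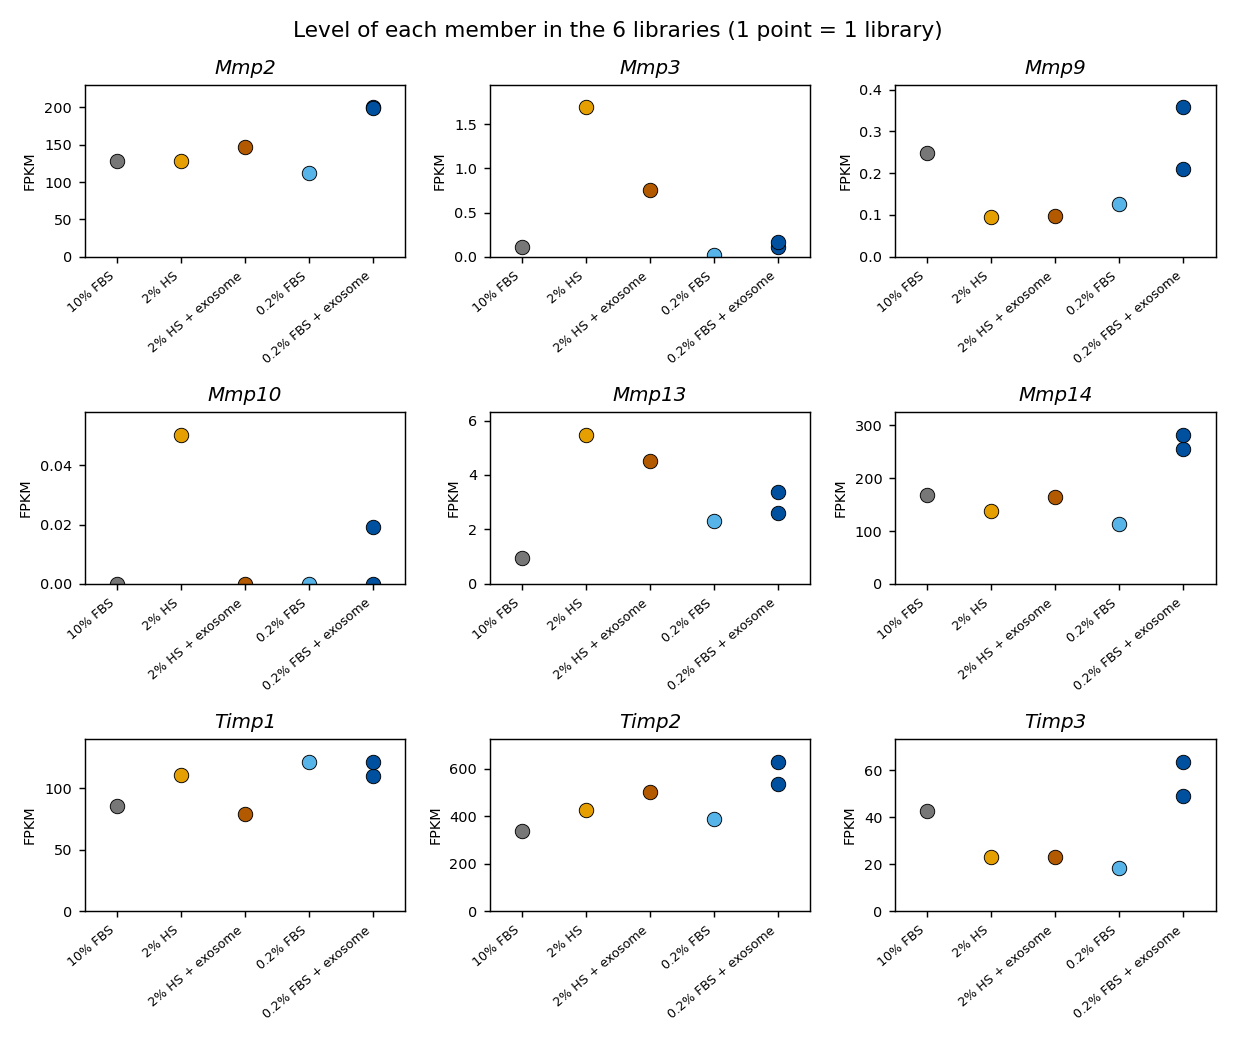
FPKM of each of the 9 genes (vertical axis, from 0, a different scale in each panel) in the 5 conditions (horizontal axis), with 1 point per library. Mmp14, Mmp2 and Timp3 were highest in both 0.2% FBS + exosome libraries, Mmp3 and Mmp13 in the 2% HS libraries, and Mmp10 did not exceed 0.0504 FPKM.

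The first comparison asked how exosomes of the serum change these transcripts in cells differentiating in 0.2% FBS. Mmp14 and Timp3 rose past the threshold in each exosome library, and no member fell past it, so 2 of 9 members were called higher and 0 lower. Over the 16450 entries above 0 in at least 1 library, 0.584% were called higher and 1.06% lower. Among genes averaging 1 FPKM or more, 2 of 6 members were called higher, against 0.895% of 10731 genes higher and 1.61% lower. The median change of the 6 members was 0.70, against 0.14 over all genes. With 1 control library, the spread between control cultures is not known. A limma fit with 1 mean per condition supplied a test within 0.2% FBS. It takes its spread from replicates 1 and 2 alone and assumes it for the single libraries, and it called 8.20% of the genes higher and 4.32% lower. Without the filter on low values it called 0 genes, with 3121 at an unadjusted p under 0.05, and Mmp2, Mmp14 and Timp3 each had an adjusted p of 0.243. After scaling to the same 75th percentile, it called 855 genes higher and 803 lower in place of 880 and 464, and the fold threshold called 63 and 214 in place of 96 and 175.

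Mmp14, the membrane-bound activator of proMMP2, measured 114 FPKM in 0.2% FBS. Replicates 1 and 2 with exosomes in that medium measured 255 and 283 FPKM. Both exosome libraries were higher than each of the other 4 libraries, of which 10% FBS was the highest at 168 FPKM. The ratio to 0.2% FBS was 2.24 and 2.48, and the log2 change 1.23 (SD 0.10, n = 2; limma SE 0.23, adjusted p = 0.0177). After scaling to the same 75th percentile, the change was 1.12.

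Mmp2, the secreted gelatinase that Mmp14 activates, measured 112 FPKM in 0.2% FBS, and its exosome libraries 200 and 199 FPKM. As for Mmp14, the 2 exosome libraries were above all others, the next being 2% HS + exosome at 147 FPKM. The log2 change of 0.82 (SD 0.01, n = 2) did not reach the fold threshold but passed in limma (SE 0.21, adjusted p = 0.041). Mmp9, the other gelatinase, known mainly from leukocytes, was near the limit of detection, with 0.127 FPKM in the control, and 0.21 and 0.358 FPKM after exosome addition. These values correspond to about 14, 22 and 36 reads at the estimated depths. About 29 reads were estimated in 10% FBS (0.247 FPKM) and 11 and 10 in 2% HS without and with exosomes.

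Timp3, the matrix-bound inhibitor, had the largest change of the members. Its level was 18.5 FPKM in 0.2% FBS, against 49.0 and 63.7 FPKM in the exosome libraries, which again exceeded all others, with 10% FBS next at 42.8 FPKM. The ratios were 2.64 and 3.43, and the log2 change was 1.54 (SD 0.26, n = 2; limma SE 0.20, adjusted p = 0.00735). Timp2, the inhibitor that bridges Mmp14 and proMMP2, measured 389 FPKM in 0.2% FBS, and 537 and 631 FPKM after exosome addition. Both values lay above the other libraries, but the log2 change of 0.58 (SD 0.16, n = 2) did not pass in limma (SE 0.31, adjusted p = 0.236). Timp1, a soluble inhibitor that inflammatory and growth signals induce in many cells, measured 122 FPKM in 0.2% FBS, and 110 and 121 FPKM after exosome addition. Its log2 change was −0.07 (SD 0.10, n = 2; limma SE 0.20, adjusted p = 0.84).

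None of the chromosome 9 genes was called with exosomes in 0.2% FBS. Mmp13, a collagenase, measured 2.30 FPKM in the control and 3.39 and 2.61 FPKM in the exosome libraries, for a log2 change of 0.27 (SD 0.20, n = 2; limma SE 0.19, adjusted p = 0.374). Mmp3, a stromelysin that cuts many matrix proteins and activates other proenzymes, was at 0.0169 FPKM without and at 0.106 and 0.166 FPKM with exosomes. These values correspond to about 1, 6 and 9 reads, too few for a fold change. Mmp10, the related stromelysin, was listed at 0 in 0.2% FBS and in replicate 1 and rested on about 1 read in replicate 2.

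In 2% HS, 1 library with exosomes was compared with 1 without, and no replicate check exists. None of the 9 members was called in either direction, against 0.237% of the 16450 entries higher and 0.201% lower. Mmp14 measured 138 FPKM in the control and 165 FPKM in the exosome library (log2 difference 0.25), Mmp2 at 128 and 147 FPKM (0.19) and Timp2 at 427 and 504 FPKM (0.24). Timp3 was at 23.1 and 22.9 FPKM (−0.01, and 0.02 after scaling to the same 75th percentile). Timp1 was the member of at least 1 FPKM with the largest difference, at 111 FPKM without and 79.2 FPKM with exosomes (−0.48). Mmp3 measured 1.69 FPKM in the control and 0.752 FPKM after exosome addition (−0.62, and called lower at −1.07 with a pseudocount of 0.1), about 104 and 41 reads, and Mmp13 at 5.49 and 4.51 FPKM (−0.24).

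**Figure D2:**
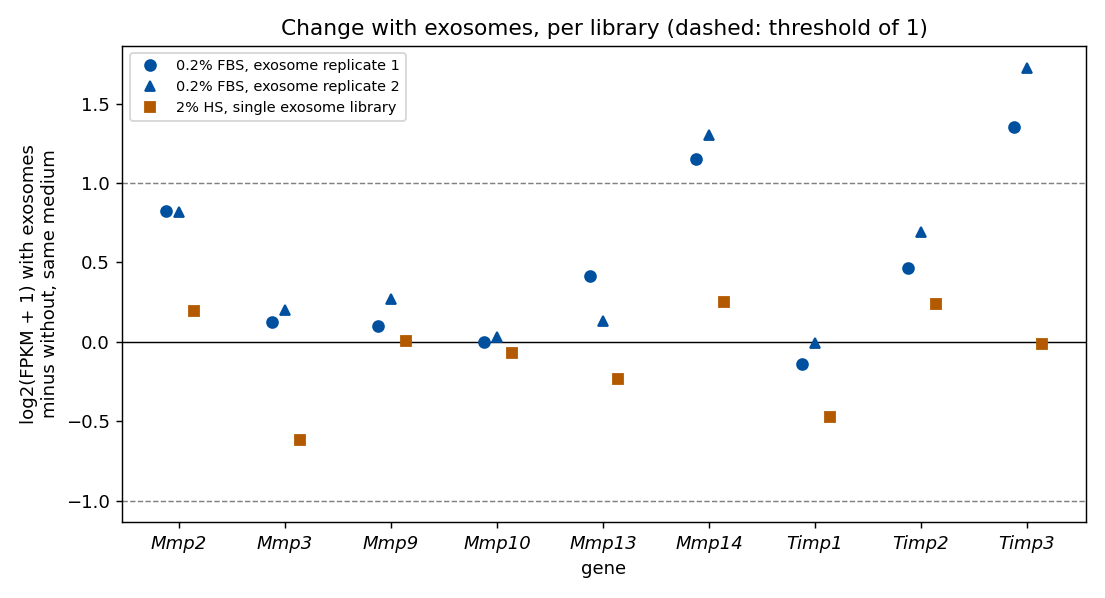
Difference of log2(FPKM + 1) with exosomes minus without (vertical axis) for the 9 genes (horizontal axis). Blue circles and triangles are replicates 1 and 2 against the 0.2% FBS library, brown squares are the single 2% HS pair, and dashed lines mark 1 and −1. Mmp14 and Timp3 lie above 1 in both blue points and near 0.25 and −0.01 in 2% HS.

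Whether exosomes acted differently in 0.2% FBS and 2% HS was tested in the same limma fit, in which 0.298% of the genes were called higher in 0.2% FBS relative to 2% HS and 0.867% lower. None of the 6 members passed. The difference was 1.55 for Timp3 (SE 0.30, adjusted p = 0.0547), and this passed at a pseudocount of 0.1 (adjusted p = 0.0468) and after scaling to the same 75th percentile (adjusted p = 0.0222). It was 0.98 for Mmp14 (SE 0.35, adjusted p = 0.184) and 0.63 for Mmp2 (SE 0.32, adjusted p = 0.325). A second limma model, which gave both media 1 shared exosome effect and left out growing cells, called 0 of 10731 genes (0.00% in either direction), with 709 at an unadjusted p under 0.05. In it, the estimate was 0.87 for Timp3 (SE 0.34), 0.81 for Mmp14 (SE 0.25) and 0.55 for Mmp2 (SE 0.20), each with an adjusted p of 0.705 and higher in 2, 3 and 3 of the 3 exosome libraries, respectively.

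The serum reduction that starts differentiation was compared through single libraries. The 10% FBS library already held differentiation markers, so it is no baseline free of them. Myog was at 512 FPKM in 10% FBS, 564 FPKM in 2% HS and 663 FPKM in 0.2% FBS. Myh3 was at 738, 1575 and 1604 FPKM in the same libraries. In 2% HS against 10% FBS, Mmp13 and Mmp3 were called higher and no member lower, 2 and 0 of 9, against 1.20% and 0.340% of the 16450 entries. With a mean of at least 1 FPKM, 1 of 6 members was called higher (Mmp13) and 0 lower, against 1.79% and 0.522% of the genes. Mmp13 measured 0.943 FPKM in growing cells and 5.49 FPKM in 2% HS, a ratio of 5.82 (log2 difference 1.74). Mmp3 was at 0.111 and 1.69 FPKM, about 7 and 104 reads (log2 difference 1.28), and was no longer called with values below 1 FPKM raised to 1 (0.76). In 0.2% FBS against 10% FBS, Timp3 was called lower and no member higher, against 0.468% of the entries lower and 1.19% higher, or 0.690% and 1.79% of those averaging 1 FPKM or more. Its level was 42.8 FPKM in growing cells and 18.5 FPKM in 0.2% FBS, a ratio of 0.433 (log2 difference −1.16). Mmp13 was at 2.30 FPKM in 0.2% FBS, 2.43 times its level in 10% FBS (log2 difference 0.76), and was called higher with a pseudocount of 0.1 or with values below 1 FPKM raised to 1 (1.20). In 2% HS Timp3 was at 0.540 of its level in growing cells (−0.86). Mmp14 was also lower in both reduced media, by log2 differences of −0.28 in 2% HS and −0.56 in 0.2% FBS, and Timp1 was higher by 0.36 and 0.50.

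The 2 media without exosomes differed most in Mmp3, at about 104 reads in 2% HS and about 1 read in 0.2% FBS. Mmp13 was higher in 2% HS as well (5.49 against 2.30 FPKM). With exosomes the order was the same, about 41 against 6 and 9 reads for Mmp3 and 4.51 against 3.39 and 2.61 FPKM for Mmp13. Each of these medium differences rests on 1 library of 2% HS or 2% HS + exosome, and Mmp10 was listed above 0 in 2% HS (about 3 reads) and not in 2% HS + exosome.

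Set against growing cells, the 0.2% FBS + exosome libraries lay above the 10% FBS library for Timp3, Mmp14, Mmp2, Timp2, Timp1 and Mmp13. The log2 difference from 10% FBS was 0.38 for Timp3 (SD 0.26), 0.67 for Mmp14 (SD 0.10), 0.64 for Mmp2 (SD 0.01), 0.77 for Timp2 (SD 0.16), 0.43 for Timp1 (SD 0.10) and 1.04 for Mmp13 (SD 0.20), each with n = 2 against 1 library. Without exosomes, 0.2% FBS lay below 10% FBS for Timp3, Mmp14 and Mmp2. Both comparisons use the same 10% FBS library. The single 0.2% FBS library is in turn shared by the comparison with 10% FBS and by the change with exosomes, with opposite sign. It was the lowest of all libraries for Timp3 (18.5 FPKM), Mmp14 (114 FPKM) and Mmp2 (112 FPKM). A low value in that library alone would give both a fall with serum reduction and a rise with exosomes, and this was not tested. The summed muscle markers were close to the 5032 FPKM of growing cells in replicate 1 (5004 FPKM) and below it in replicate 2 (3746 FPKM), and their part in the levels of Mmp14 and Timp3 was not tested. In bulk RNA, fewer cells of a type and less RNA per cell cannot be told apart.

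**Figure D3:**
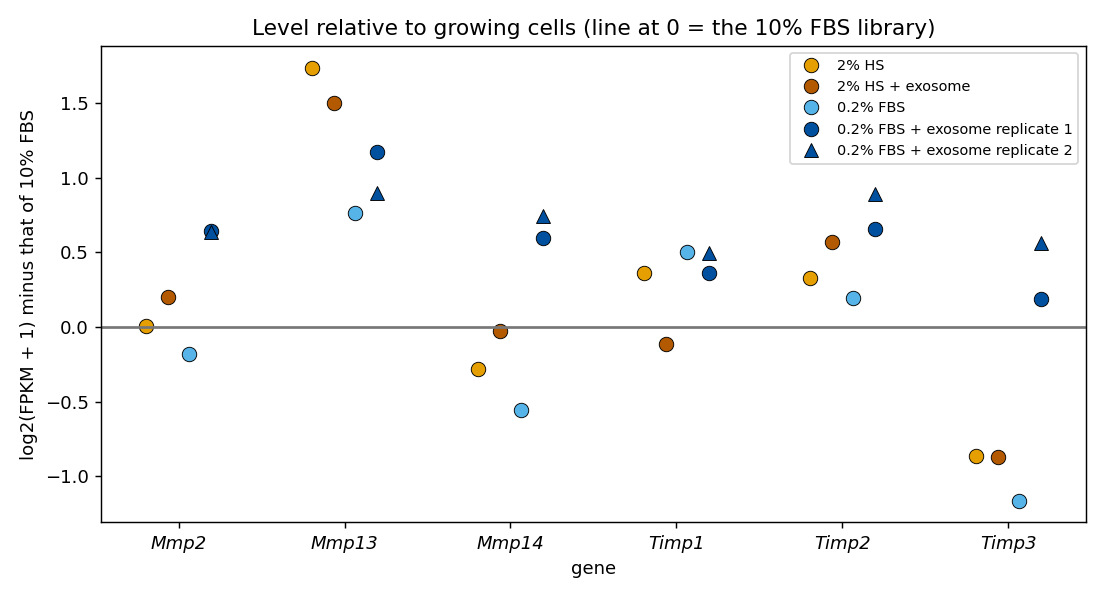
Log2(FPKM + 1) minus that of the 10% FBS library (vertical axis) for the 6 genes averaging 1 FPKM or more (horizontal axis), with 1 symbol per library as in the legend and the grey line at 0 for growing cells. For Timp3, 2% HS, 2% HS + exosome and 0.2% FBS lie between −0.86 and −1.16 and both 0.2% FBS + exosome libraries above 0, whereas all 5 libraries lie above 0 for Mmp13 and Timp2.

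The summed FPKM of the 6 metalloproteinases was 229 in 0.2% FBS and 459 and 485 in the exosome libraries of that medium. Mmp2 and Mmp14 supplied between 97.3 and 99.6% of that sum in each library. The 3 inhibitors summed to 530 FPKM in 0.2% FBS and to 697 and 816 FPKM with exosomes, of which Timp2 supplied between 72.6 and 83.2% over the 6 libraries. Inhibitor over metalloproteinase transcripts stood at 2.31 in 0.2% FBS, 2.05 in 2% HS and 1.91 in 2% HS + exosome. It was lower in 10% FBS (1.58) and in the 0.2% FBS + exosome libraries (1.52 and 1.68). The ratio of Timp2 to Mmp14, the pair that handles proMMP2, divided the libraries in the same way, with 2.02 in 10% FBS and at most 2.23 in 0.2% FBS + exosome, against 3.09 in 2% HS, 3.06 in 2% HS + exosome and 3.41 in 0.2% FBS. The make-up of the inhibitors also differed. Timp1 exceeded Timp3 by a ratio of 6.57 in 0.2% FBS and 4.79 in 2% HS and 3.46 in 2% HS + exosome, against 2.01 in 10% FBS and 2.25 and 1.91 in 0.2% FBS + exosome. These ratios describe single libraries and carry no test.

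**Figure D4:**
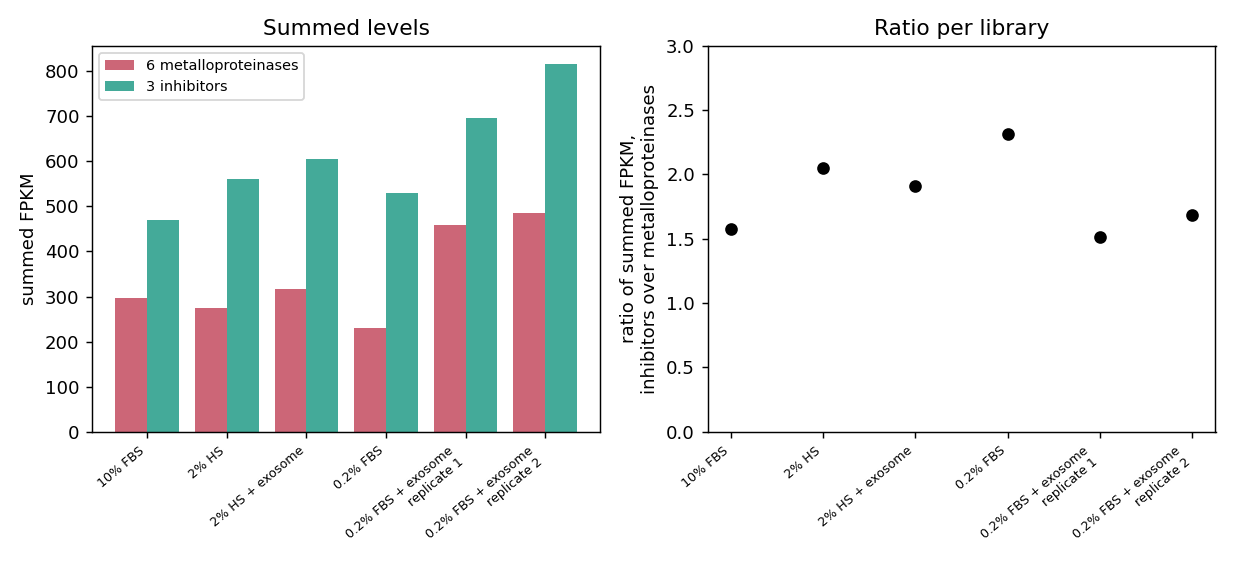
Left, summed FPKM of the 6 metalloproteinases and the 3 inhibitors in each library, as bars from 0. Right, the ratio of the inhibitor sum to the metalloproteinase sum in the same libraries, which is highest in 0.2% FBS (2.31) and lowest in 0.2% FBS + exosome replicate 1 (1.52).

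Of 19 further genes of the family, 7 reached a mean of 1 FPKM. None passed the fold threshold with exosomes in 0.2% FBS (0.895% of all genes higher, 1.61% lower), 5 were higher in both exosome libraries and 1 was lower, where 55.2% of all genes were higher in both and 27.5% lower. The count of lower genes was 2 after 75th percentile scaling and in replicate 1 alone. Mmp11, a secreted enzyme that furin activates inside the cell, measured 16.6 FPKM in the control, and 26.7 and 33.5 FPKM after exosome addition (log2 change 0.81, limma adjusted p = 0.0283), and it was the 1 gene of 7 that passed in limma, where 8.20% of all genes rose and 4.32% fell. Mmp23 measured 6.32 FPKM in the control and 9.97 and 9.65 FPKM with exosomes (0.56, adjusted p = 0.0551). Mmp19 measured 6.20 FPKM in the control and 7.42 and 9.96 FPKM with exosomes (0.42), and Mmp28 at 1.36 FPKM without and 1.79 and 2.94 FPKM with exosomes (0.49). The membrane-type enzyme Mmp15 was at 21.7 FPKM without and at 17.5 and 13.9 FPKM with exosomes (−0.45, adjusted p = 0.133), opposite in sign to Mmp14. Mmp24 (−0.08) and Reck, a membrane-anchored inhibitor of several metalloproteinases (0.20), were near their control. Mmp1a, Mmp1b, Mmp7, Mmp20 and Mmp25 were listed at 0 in all libraries.

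Among 11 genes of plasminogen activation, which yields plasmin, a protease that can activate proenzymes of this family, 8 reached 1 FPKM. In limma 4 of them rose with exosomes in 0.2% FBS and 0 fell, and 2 passed the fold threshold, where 8.20% of all genes rose and 4.32% fell in limma and 0.895% were past the threshold, higher. Serpine2, an inhibitor of the plasminogen activators and thrombin, was at 4.81 FPKM without and at 16.5 and 35.2 FPKM with exosomes (log2 change 2.11, SD 0.74, n = 2; limma adjusted p = 0.0136). Plau, the urokinase-type activator, was at 50.2 FPKM without and at 139 and 115 FPKM with exosomes (1.31, adjusted p = 0.0105). In 2% HS Plau measured 88.8 FPKM in the control and 64.8 FPKM after exosome addition, and its difference between the media passed in limma (1.76, adjusted p = 0.0435), as for no other gene of the lists. The other 2 genes that rose, named after their values were seen, were Plaur, the urokinase receptor (1.11, adjusted p = 0.0125), and Plat, the tissue-type activator (0.93, adjusted p = 0.0149).

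The remaining lists held few calls, to be read against the 8.20% of all genes that rose and the 4.32% that fell in limma. Of 9 tested genes for the processing and docking of proenzymes, 1 rose in limma (the integrin Itgb3, 0.63) and none fell, and Furin measured 34.4 FPKM in the control and 32.1 and 34.7 FPKM with exosomes. Of 15 ADAM and ADAMTS proteases tested, Adamts10 rose (0.90) and Adam8 (−0.92) and Adamts14 (−1.12) fell in limma. Of 21 matrix substrates tested, Nid1 (0.99) and Lama2 (0.58) rose and Thbs1 (−0.98) fell in limma. Other genes of the basal lamina in that list did not pass, among them Col4a1 (−0.08), Col4a2 (−0.04), Hspg2 (0.04) and Lamb1 (0.54, adjusted p = 0.137). None of these 3 lists had a gene past the fold threshold in each exosome library, except that Thbs1 passed it, lower, after 75th percentile scaling, and the genes named here were chosen after their values were seen. Their median changes were 0.31, 0.24 and 0.14, against 0.70 for the 6 members and 0.86 for plasminogen activation. Of the cell type markers, 7 of 8 muscle markers were lower in both exosome libraries (27.5% of all genes), among which Tnnt3, Myh3 and Acta1 fell past the fold threshold in each (1.61% of all genes), and no leukocyte or endothelial marker passed it, while Twist2, counted here as a fibroblast marker, rose past it (2.51 FPKM without, 6.83 and 7.31 FPKM with exosomes). In limma Tnnt3 passed (adjusted p = 0.0289), and Myh3 (adjusted p = 0.0586) and Acta1 (adjusted p = 0.159) did not. The other muscle marker, the myoblast factor Myf5, rose in limma (0.96, adjusted p = 0.0196), and Myod1 was near its control (−0.23, adjusted p = 0.472). Of the other fibroblast markers, Pdgfra differed in sign between the exosome libraries (−0.09 and 0.72), and Dpt was at 0.961 FPKM without and 0.434 and 0.185 FPKM with exosomes. The part of these markers in the change of the members was not tested.

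**Figure D5:**
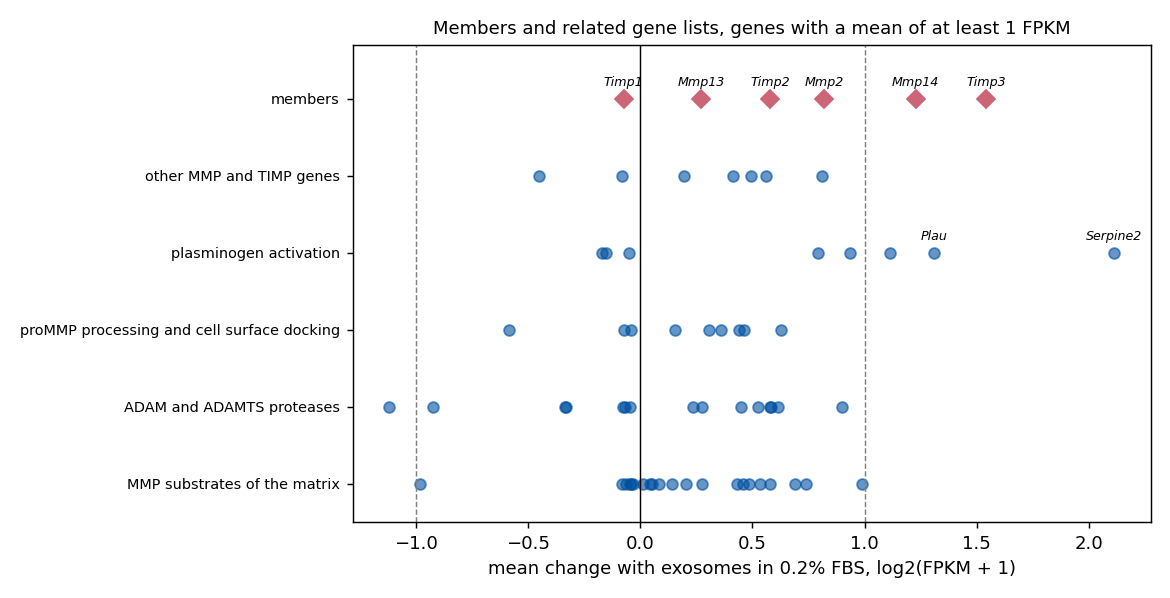
Mean change with exosomes in 0.2% FBS on the log2(FPKM + 1) scale (horizontal axis) for the members (diamonds) and the genes of 5 related lists (circles, 1 per gene with a mean of at least 1 FPKM). Dashed lines mark 1 and −1, and the list genes past the threshold in each exosome library, Plau and Serpine2, are named.

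For the 3 members with the widest span over the 6 libraries, the genes with the most similar pattern were sought among about 720 genes averaging 10 FPKM or more with a span of at least 1 on the log2 scale. Timp3 (span 1.73) was followed most closely by Cmtm3 (r = 0.997), Mmd (r = 0.995) and Rarg (r = 0.995). Mmp13 (span 1.74) was nearest to Bst2 (r = 0.979), the small proteoglycan Dcn (r = 0.958) and Tmem158 (r = 0.884). Mmp3 (span 1.40) was nearest to Tpm3 (r = 0.957), Ctgf (r = 0.927) and Tmem158 (r = 0.860). These coefficients cover 6 libraries and were picked as the highest of many, so they describe the libraries only. Among the members, the highest coefficient was that of Mmp2 with Mmp14 (r = 0.967). Timp3 had r = 0.923 with Mmp9, 0.921 with Mmp14, 0.801 with Mmp2, 0.495 with Timp2 and 0.138 with Timp1. Its coefficients with Mmp3, Mmp10 and Mmp13 were negative. Those with Mmp3, Mmp9 and Mmp10 rest on genes averaging under 1 FPKM, with Mmp9 at no more than 0.358 FPKM in any library.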

How the data were processed

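The 6 stranded mRNA libraries of C2C12 cells were read as 75 bp single-end reads. Per the submitters' processing notes and the study's methods, the authors trimmed the reads with cutadapt 1.9.1, mapped them to mm10 with TopHat2 2.1.0, computed FPKM with Cufflinks and deposited these FPKM values as 1 table. FPKM divide by gene length and depth, and the annotation used is not given in the sources used here. Depth was estimated from low FPKM of 2442 genes with 1 transcript, by the read number that made most of them whole (73.2 to 75.4%, to a tolerance of 0.1 read), assuming fragments of 200 bases. Estimated reads are not counts, and no interval was computed from them.

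Groups follow the treatment label. The fold threshold of 1 is that of the study's methods, applied to log2(FPKM + 1). limma 3.58.1 in R 4.3.3 was fitted with a mean-variance trend to 10731 genes averaging 1 FPKM or more. Benjamini-Hochberg adjustment covered all of them. The main fits were also run on data simulated with the spread fitted to these libraries. That run checks that an added change is recovered, and cannot test the spread assumed for the single libraries. All 9 members were to be named, with every list gene past the threshold in each exosome library, every further family gene of at least 1 FPKM and the 3 genes most like each of 3 members. Members and lists were chosen with earlier results of these data known, and the list counts under other settings were added after seeing the data. Alternatives were the pseudocount, raising values below 1 FPKM to 1, 75th percentile scaling, no filter, no trend, leaving out an exosome replicate and a replicate block. Promoters come from RefSeq (GRCm38.p6) and positions from GENCODE vM21. The RT-qPCR and staining of the study were not analysed here.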

Additional observations from a re-analysis of the deposited data

Results flagged for a closer look

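For 3 members the change with exosomes had 1 sign in both libraries of 0.2% FBS and the other sign in the single library of 2% HS. The effect in 0.2% FBS exceeded that in 2% HS by 1.55 for Timp3 (limma adjusted p = 0.0547). The Timp3 change in 2% HS was only −0.01, and scaling on the 75th percentile turned it to 0.02. For Mmp13 the difference was 0.51 (limma adjusted p = 0.377), from changes of 0.41 and 0.13 in 0.2% FBS and −0.24 in 2% HS. For Mmp3, which is below 1 FPKM on average, the difference was 0.78, with a limma adjusted p of 0.359 in the fit without a filter on low values (SE 0.076), and about 1 read lies behind its value in 0.2% FBS without exosomes.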

How the results depend on the processing

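Mmp14 and Timp3 were the members past the threshold with exosomes in 0.2% FBS under each alternative run. These were a pseudocount of 0.1, values below 1 FPKM raised to 1, 75th percentile scaling, either exosome library alone and the mean of both. Without replicate 1 and without replicate 2 the count of members was 2, with 0 lower. The call already requires both libraries, so the runs on 1 library or on the mean could only add members. All alternatives used the same single 0.2% FBS library. The changes were 1.12 for Mmp14 and 1.44 for Timp3 after the scaling. A pseudocount of 0.1 gave 1 member in 2% HS with exosomes, Mmp3, lower by a log2 difference of −1.07 (1 lower, in place of 0), and 2 members in 0.2% FBS against 10% FBS (Mmp13, 1 higher in place of 0, besides Timp3). Raising values below 1 FPKM to 1 gave the same 2 members there, again with 1 higher, and left 1 member, Mmp13, higher in 2% HS against 10% FBS, in place of 2. The limma fit within 0.2% FBS called 1344 genes and 3 members, and without a filter on low values 0 genes and 0 members, with 3121 genes at an unadjusted p under 0.05 and an adjusted p of 0.243 for Timp3, Mmp14 and Mmp2, where the fit spans 16450 entries. The other alternatives kept the 3 members called. The limma difference between the media called 125 genes and 0 members. It called 1 member, Timp3, at a pseudocount of 0.1 and again after the scaling, which gave 377 genes, and it called 45 genes with no mean-variance trend and 0 without the filter (2276 at an unadjusted p under 0.05). In the fit with a single exosome effect, 0 genes passed under any alternative, and the Mmp13 effect of 0.05 was −0.052 without replicate 1 of 0.2% FBS + exosome and 0.088 without replicate 2. Beyond these, 84 of the members' limma results kept their direction and side of the threshold. Of the lists, the matrix substrates went from 11 genes higher and 2 lower in both exosome libraries to 8 and 5 after the scaling (Thbs1 past the threshold), to 12 and 9 without replicate 1 (Vcan and Thbs1) and to 18 and 3 without replicate 2 (Nid1), and Adam8 and Adamts14 passed it without replicate 1. The cause of these differences was not tested.

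Over all entries, the counts past the threshold with exosomes in 0.2% FBS (96 higher and 175 lower) were 286 and 367 at a pseudocount of 0.1, 319 and 309 without replicate 1 and 157 and 186 without replicate 2. The count of higher entries was 182 with low values raised to 1, 195 on the mean of both libraries and 63 after the scaling. At a pseudocount of 0.1 the counts were 196 and 151 in place of 39 and 33 for exosomes in 2% HS, 435 and 298 in place of 198 and 56 for 2% HS against 10% FBS, and 434 and 396 in place of 195 and 77 for 0.2% FBS against 10% FBS. With low values raised to 1 they were 70 and 54 for exosomes in 2% HS, and 120 and 190 lower in the latter 2 comparisons.

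In the titles, number 1 stands on both 2% HS libraries. Number 2 stands on 0.2% FBS and on replicate 1 of 0.2% FBS + exosome. Number 3 stands on replicate 2 of 0.2% FBS + exosome alone, which has no control of its own number. No number occurs in both media, so number and medium cannot be told apart, and whether same-numbered libraries deviate together could not be computed with 1 library in most groups. With these numbers as a replicate block, the single exosome effect was 0.67 for Timp3 and 0.70 for Mmp14. The fit without replicate 2 gave the same estimates, since the block sets that library apart, so the block was no separate check. Without counts, depth limits mainly Mmp3, Mmp9 and Mmp10.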
